A study of Mus musculus with 12 samples.

Results

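The response to PDGF-B of cultured mouse hepatic stellate cells labelled as Pdgfrb knockout was described over all detected genes. It is held by 6 of the 12 arrays of the study, 3 with PDGF-B and 3 with vehicle, chosen by the genotype and treatment in their labels, and 13637 genes were tested. Each knockout array with PDGF-B shares a code in its title with 1 array of vehicle, and the codes P524, P338 and P522 are called preparations here. All mice carried floxed Pdgfrb alleles (129S4/SvJae background). Knockout mice also carried a Cre transgene from an FVB line, driven by the promoter of GFAP, a glial gene also active in stellate cells, and wild-type mice lacked it. Deletion in this model is limited to cells in which that promoter has been active, so other cells of a preparation keep an intact receptor gene. Cells were obtained by enzyme digestion and a density gradient, grown in medium with serum, and then received PDGF-B (10 ng/ml in albumin vehicle) or the vehicle alone, without serum. The remaining 6 arrays are wild-type cells treated the same way (preparations P11, P393 and P530). The labels do not give the length of treatment, the age of the mice, or whether a code is an animal, a pool or a culture. The p-values thus reflect only how far these samples scatter, and some of that scatter can be technical.

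PDGF-B is secreted as a dimer and binds both PDGF receptors, alpha (Pdgfra) and beta (Pdgfrb). Both are tyrosine kinases that signal through the ERK, PI3K-Akt and STAT pathways, and their early targets include immediate early transcription factors and the phosphatases and adaptors that damp the signal. In stellate cells, the vitamin A-storing pericytes of the liver that become matrix-producing myofibroblasts after injury, PDGF-B is known as a mitogen and chemoattractant, acting mostly through the beta receptor. The comparison asks which genes respond to the ligand in cells labelled as lacking that receptor.

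Stretches of 4 promoters are shown because they belong to genes that the results below turn on or illustrate. Each also holds a known regulatory motif. They are RefSeq sequences of assembly GRCm38.p6, from 250 bases before to 50 after the annotated start, on the strand of the gene, and were chosen after the values were seen. Capitals mark the motif. In Tnc (tenascin-C, chr4:64046966-64047265, minus strand) it is the site GCGGGGGCG bound by EGR proteins. In Egr2 (chr10:67537316-67537615, plus strand) and Dusp5 (chr19:53528895-53529194, plus strand) it is the CArG box bound by serum response factor, and the capitals in Dusp5 span 2 such boxes side by side. In Hspa5 (chr2:34771840-34772139, plus strand) it is the ER stress element, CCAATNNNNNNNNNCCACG.
Tnc: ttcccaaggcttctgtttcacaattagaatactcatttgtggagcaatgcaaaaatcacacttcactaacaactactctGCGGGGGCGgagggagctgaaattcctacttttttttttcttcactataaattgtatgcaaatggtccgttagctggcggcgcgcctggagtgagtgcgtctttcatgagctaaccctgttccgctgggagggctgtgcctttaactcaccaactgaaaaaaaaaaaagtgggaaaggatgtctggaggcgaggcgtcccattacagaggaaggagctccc
Egr2: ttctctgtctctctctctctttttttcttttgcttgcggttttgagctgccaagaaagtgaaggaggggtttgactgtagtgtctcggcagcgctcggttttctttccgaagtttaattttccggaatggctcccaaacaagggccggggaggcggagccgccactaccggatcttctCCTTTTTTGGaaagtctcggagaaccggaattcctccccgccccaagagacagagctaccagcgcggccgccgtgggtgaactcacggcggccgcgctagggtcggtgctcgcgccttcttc
Dusp5: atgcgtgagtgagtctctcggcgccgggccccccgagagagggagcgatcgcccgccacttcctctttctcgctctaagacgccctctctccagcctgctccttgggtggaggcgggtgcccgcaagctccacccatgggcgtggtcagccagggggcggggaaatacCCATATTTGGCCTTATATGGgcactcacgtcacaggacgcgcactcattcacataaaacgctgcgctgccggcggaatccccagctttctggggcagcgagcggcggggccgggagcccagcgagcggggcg
Hspa5: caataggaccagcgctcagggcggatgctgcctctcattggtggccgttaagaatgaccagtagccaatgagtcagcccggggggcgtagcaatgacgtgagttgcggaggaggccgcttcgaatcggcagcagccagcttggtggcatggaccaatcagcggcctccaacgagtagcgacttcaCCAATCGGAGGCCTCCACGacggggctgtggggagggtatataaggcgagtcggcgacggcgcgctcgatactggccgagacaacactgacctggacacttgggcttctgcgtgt
Both strands were searched in the promoters of all 27025 genes with an entry. The EGR site was held by 3.31% of them, the CArG box by 1.81% and the ER stress element by 0.137%. A match is only a match of letters in these windows.

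The 12 arrays had median raw intensities of 86.2 to 96.2, with 46.3% to 55.4% of 45281 probes above background, and levels below are log2 intensities after normalization. Triplets of values are given in the order P524, P338, P522. The mean raw intensity was lower with PDGF-B in every knockout pair, at 266, 241 and 202, against 273, 253 and 218 with vehicle. Of the variance between the 6 knockout arrays over all genes, 91.9% lay between preparations, 3.72% with PDGF-B and 4.35% in the remainder. The smooth muscle actin Acta2, the defining gene of myofibroblasts, was among the brightest genes, at 13.88, 14.12 and 13.54 with PDGF-B, against 13.75, 14.02 and 13.54 with vehicle. All 21 contractile genes listed were measured. Of 21 genes listed for quiescent stellate cells 14 were measured, and Lrat, which esterifies vitamin A for storage, was not among them. The macrophage gene Lyz2 (lysozyme) was at 13.47, 13.90 and 14.05 with PDGF-B, against 13.35, 13.80 and 13.85 with vehicle. In bulk samples a lower level can come from fewer cells of a type or from less RNA per cell, and these cannot be told apart.

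Pdgfrb, the targeted gene, was at 6.98, 6.52 and 7.74 with PDGF-B and at 7.17, 6.42 and 7.61 with vehicle on the arrays labelled knockout. On wild-type arrays (P11, P393, P530) it was at 6.82, 6.92 and 7.80 with PDGF-B and at 6.68, 6.78 and 7.60 with vehicle. The genotypes thus overlapped fully. The sources used here do not say whether the only Pdgfrb probe kept lies inside the exons that Cre removes. Its level therefore checks no label, and "knockout" below means labelled so. Pdgfra, the receptor that remains, was at 7.80, 8.09 and 8.44 with PDGF-B, against 7.82, 7.89 and 8.07 with vehicle. Its change was 0.19 ± 0.11 (SE, limma, adjusted p = 0.856). The ligand genes Pdgfa, Pdgfb and Pdgfc differed by -0.02, -0.07 and -0.02. None of the 5 measured receptor and ligand genes had the same direction in all 3 pairs.

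Differences with PDGF-B were small for most genes in knockout cells, and no gene passed the test when the spread was estimated from all 12 arrays. With the preparation as a block, 0 of 13637 genes (percent called 0) had a limma adjusted p under 0.05, and the smallest was 0.283. At an unadjusted p under 0.05, 426 genes were higher with PDGF-B (3.12%) and 420 lower (3.08%), where chance gives 682 in all. A change past 1 on the log2 scale was seen in 1 gene upward in P524, 3 in P338 and 5 in P522, and downward in 1 gene of P522. Higher in all 3 pairs were 2068 genes (15.2%) and lower in all 3 were 2144 (15.7%). With the arrays scaled to a common median instead of quantile normalization these shares became 8.83% and 24.3%, as the median change of all genes moved to -0.03. The PDGF-B and vehicle arrays did not overlap for 326 genes higher with PDGF-B (2.39%) and 291 lower (2.13%). Across the 13637 genes, pair changes correlated at r = 0.18 (P524 and P338), 0.24 (P524 and P522) and 0.16 (P338 and P522). A knockout and a wild-type pair correlated at -0.15 (P338 and P11) to 0.24 (P338 and P530). Of the wild-type pairs, P393 and P530 correlated at 0.30, and P11 at -0.38 with P393 and -0.19 with P530. These values describe genes of arrays processed together and are no test.

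The number of genes called depended on the arrays from which the spread was estimated. Fitted to the 6 knockout arrays alone, which leave 2 residual degrees of freedom, limma called 51 genes (0.374%), 38 higher (0.279%) and 13 lower (0.0953%). The changes themselves are the same in both fits, and only their errors differ. The spread of the pair changes (median SD over all genes) was 0.0995 in knockout and 0.120 in wild-type pairs, and over the 51 genes 0.145 in knockout and 0.313 in wild-type pairs. The 51 were called on the knockout spread, so a smaller spread in knockout than in wild-type pairs over them is partly selection. Leaving out the wild-type preparation P11 brought the wild-type spread to 0.150 over the 51 genes and to 0.0868 over all genes. Without P11 each SD rests on fewer pairs, and the median of such SDs is lower even at the same true spread. The values without P11 therefore cannot show whether the wild-type spread equals that of the knockout pairs. All arrays but those of P11 called 22 genes. The 51 calls were not stable under other values. The authors' normalized table gave 1 call in the same knockout fit (Bcat1). Median scaling gave 39, of which 31 were among the 51, and 19 were higher and 20 lower. The excess of higher over lower calls was thus absent under that scaling. Leaving out 1 knockout preparation gave 32 to 65, of which 21 to 36 were among the 51. All 51 kept their direction in each of these fits. Each had the same direction in every knockout pair, so leaving out 1 preparation could not turn it.

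Aldh1a3, which makes retinoic acid from retinaldehyde, had the largest change among genes higher with PDGF-B. It was at 7.35, 6.42 and 7.74 with PDGF-B, against 6.17, 5.88 and 6.04 with vehicle. All PDGF-B arrays were above all vehicle arrays, and on 1 of the 3 vehicle arrays the probe was not above background. The mean change of the 3 pairs was 1.14 ± 0.16, with a limma adjusted p of 0.283 over all arrays and 0.00228 over the knockout arrays alone. Throughout, ± is the SE of the limma fit over all arrays, whose spread also draws on the wild-type pairs and on other genes. It is thus no SE of the 3 knockout pairs alone, and the SD of the 3 Aldh1a3 pair changes was 0.58. Over the knockout arrays, limma's adjusted p became 0.419 with an intensity trend and robust prior and 0.125 on the authors' normalized values, and a second, dimmer Aldh1a3 probe differed by 0.45. Spon2, which codes for the secreted matrix protein spondin 2, was at 9.37, 10.31 and 8.97 with PDGF-B, against 8.67, 8.98 and 8.14 with vehicle. It was higher in every pair, though the groups overlapped through preparation P338. Its change was 0.95 ± 0.14, with limma adjusted p of 0.283 and, for the knockout arrays alone, 2.9e-04, and a second Spon2 probe near background gave -0.06.

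Tnc, a matrix glycoprotein of tissue repair, was at 7.57, 8.37 and 7.99 with PDGF-B, against 6.94, 7.28 and 6.84 with vehicle, so the groups did not overlap. Its change was 0.96 ± 0.19 (limma adjusted p = 0.609 over all arrays, 2.06e-04 over the knockout arrays alone), and a second Tnc probe of like brightness gave 0.94. Its promoter is the first of those printed above, with its EGR site 171 bases before the start. Rgs16, which switches off G protein alpha subunits, was at 7.38, 7.05 and 8.93 with PDGF-B, against 6.48, 6.43 and 7.79 with vehicle. Preparation P522 was high in both conditions, and the differences within pairs were 0.90, 0.61 and 1.14 (mean 0.88 ± 0.17). Its limma adjusted p was 0.609 over all arrays and 2.29e-04 over the knockout arrays alone.

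**Figure D1:**
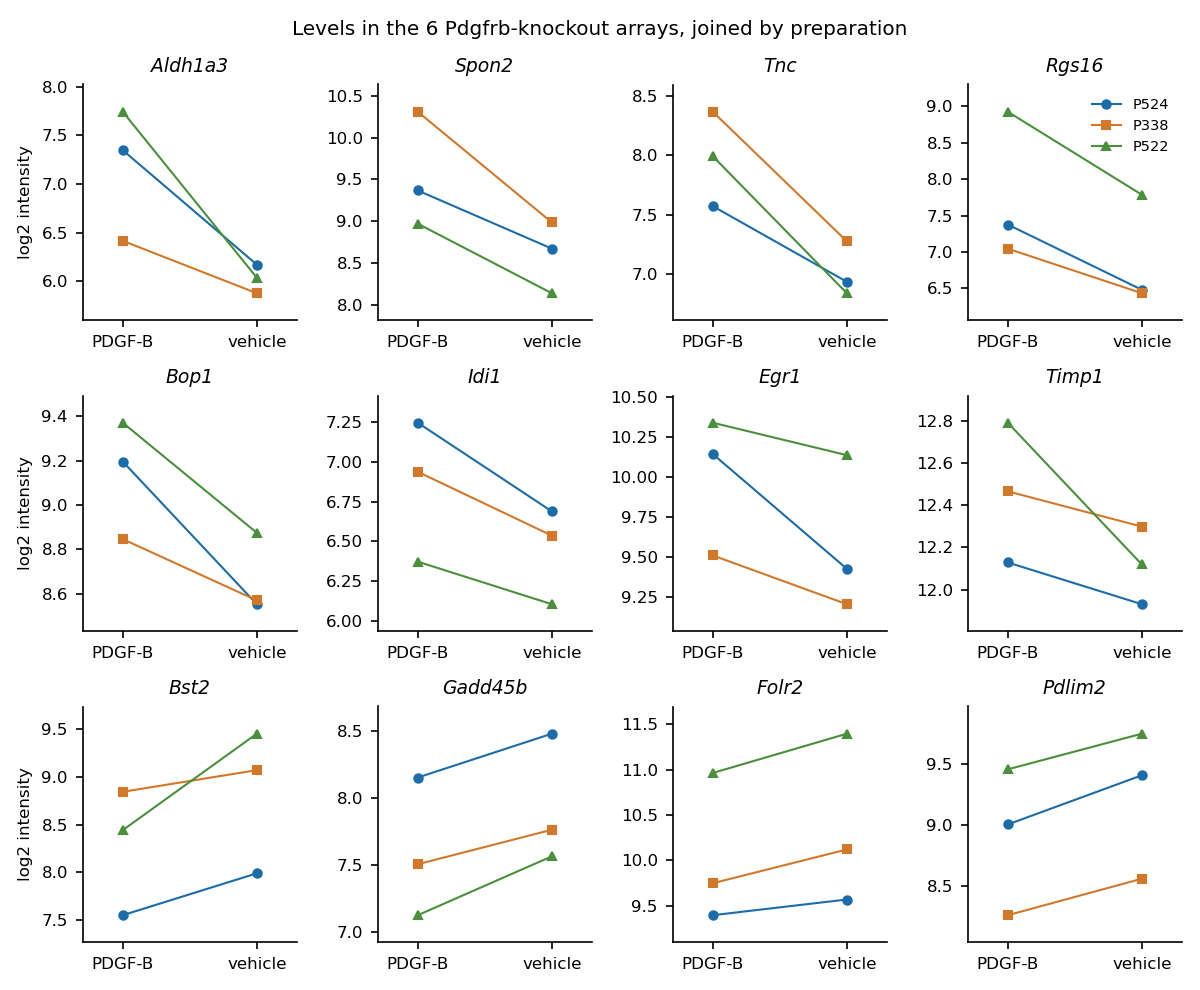
Log2 intensity of 12 genes in the 6 knockout arrays, PDGF-B left and vehicle right, with a line and marker for each preparation (P524, P338, P522). In Aldh1a3 and Tnc all 3 PDGF-B arrays lie above all 3 vehicle arrays. In the other 10 genes the groups overlap, while the 3 lines of each gene slope the same way.

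The other genes with the smallest p among those higher in 3 of 3 pairs had smaller changes. Bop1, a factor in making the large ribosomal subunit, was at 9.20, 8.85 and 9.37 with PDGF-B, against 8.55, 8.57 and 8.87 with vehicle (change 0.47 ± 0.07). Idi1, the isomerase of the early sterol pathway, was at 7.25, 6.94 and 6.37 with PDGF-B, against 6.69, 6.54 and 6.10 with vehicle (0.41 ± 0.08). Socs5, a suppressor of cytokine signalling, differed by 0.34 ± 0.07 and the methionyl-tRNA synthetase Mars1 by 0.29 ± 0.06. Oaf differed by 0.47 ± 0.10 and Ttc7 by 0.30 ± 0.06, with nearly the same step in each Ttc7 pair (0.28, 0.28 and 0.33). Limma adjusted p of these 6 genes over all arrays lay between 0.353 (Bop1) and 0.636. Of them Bop1, Idi1, Socs5 and Oaf passed in the knockout arrays alone.

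Bst2 (tetherin, an interferon-induced membrane protein) had the largest change among genes lower with PDGF-B, at 7.55, 8.84 and 8.44, against 7.99, 9.07 and 9.45 with vehicle. The change was -0.56 ± 0.12 and rested most on P522, whose pair differed by -1.01, against -0.44 in P524 and -0.23 in P338. Gadd45b, a stress-induced regulator of p38 and JNK signalling, was at 8.15, 7.50 and 7.12 with PDGF-B, against 8.48, 7.76 and 7.56 with vehicle (-0.34 ± 0.07). Pdlim2, a PDZ and LIM domain protein that limits NF-kappaB and STAT factors, was at 9.004, 8.26 and 9.46 with PDGF-B, against 9.41, 8.56 and 9.75 with vehicle (-0.33 ± 0.06), and its other 3 probes were also lower in every pair. Fuom, a fucose mutarotase, differed by -0.41 ± 0.09 and was the one gene of these 10 whose groups did not overlap.

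Among the other lower genes, the macrophage folate receptor Folr2 was at 9.39, 9.75 and 10.96 with PDGF-B, against 9.57, 10.12 and 11.40 with vehicle (-0.33 ± 0.07). Clec2d, a lectin-like ligand of natural killer cell receptors, differed by -0.37 ± 0.07, and Gngt2, a G protein gamma subunit, by -0.34 ± 0.07. A second, dimmer Gngt2 probe gave -0.03. The endosomal protein Washc3 differed by -0.33 ± 0.07, the reticulon Rtn2 by -0.33 ± 0.07 and the collagen receptor Ddr1 by -0.29 ± 0.07. Limma adjusted p of the 10 lower genes was 0.609 or 0.636 over all arrays. Pdlim2, Gadd45b, Clec2d, Gngt2 and Bst2 passed in the knockout arrays alone.

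**Figure D2:**
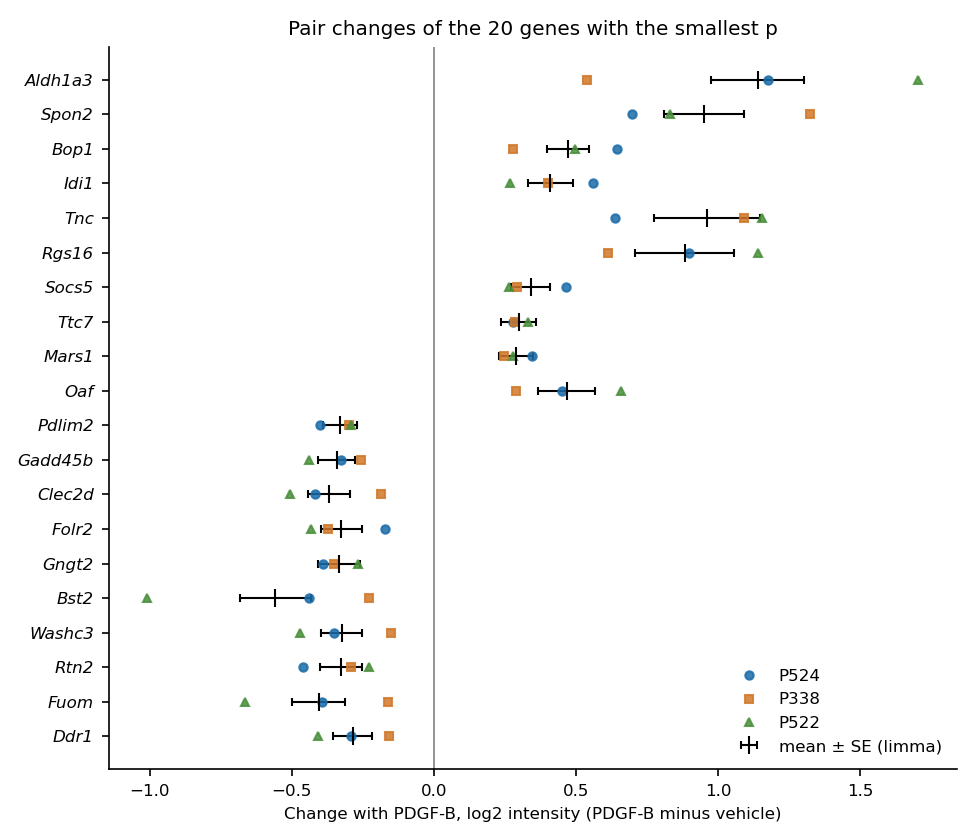
Change with PDGF-B (PDGF-B minus vehicle, log2 intensity) in each knockout pair for the 10 genes of smallest p on either side, with the mean and SE from limma as black bars. Changes downward are smaller than the 4 largest upward, and Bst2 and Aldh1a3 show the widest scatter between pairs.

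Genes of other cell types moved beside some of these. Of 18 macrophage genes measured, 5 were higher and 3 lower in all 3 pairs, with a median change of -0.02, against 15.2% and 15.7% of all genes. Tyrobp, an adaptor of myeloid receptors, was at 9.83, 10.90 and 10.95 with PDGF-B, against 10.12, 11.06 and 11.21 with vehicle (-0.23 ± 0.07), while Lyz2 was higher in each pair. The summed normalized intensity of the list was 36901, 62954 and 66413 with PDGF-B, against 35500, 60263 and 65450 with vehicle. The sum was thus slightly higher with PDGF-B in each pair, but bright genes such as Lyz2 weigh most in it. The mean log2 level of the list was 9.19, 10.05 and 9.93 with PDGF-B, against 9.22, 9.996 and 9.98 with vehicle. This mean was lower in P524 and P522 and higher in P338. The part of macrophage signal in the lower values of Folr2, Bst2 and Gngt2 was not tested. Of 12 mesothelial genes 1 was higher and 5 lower in all 3 pairs, and their sum was 16382, 14648 and 2667 with PDGF-B, against 17023, 15886 and 2664 with vehicle. Preparation P522 thus held far less mesothelial signal than the other preparations in both conditions. For the 11 hepatocyte genes measured the sums were 3160, 5025 and 3218 with PDGF-B, against 3145, 4992 and 2808 with vehicle. Albumin (Alb) was not measured.

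The remaining genes called in the knockout arrays alone are named because they passed that fit, after their values were seen. The 38 higher genes had changes of 0.32 to 1.14 with a median of 0.46, and the 13 lower genes -0.56 to -0.32 with a median of -0.37. Groups did not overlap for 13 of the 51, beside 617 of all 13637 genes. The 51 were selected on these same arrays, so this count is partly selection. Secreted ligands among them were Fgf7 (0.63, adjusted p = 0.00111 in limma over the knockout arrays), Fgf10 (0.40) and Csf1 (0.42), growth factors for epithelium and, in the case of Csf1, for macrophages. The bone morphogenetic protein Bmp4 was lower (-0.43). Matrix and surface genes among them were Mgp (1.0015), an inhibitor of calcification, the hyaluronan receptor Cd44 (0.54), the basement membrane genes Col15a1 (0.51) and Nid1 (0.37), and the stromelysin Mmp10 (0.62). Mgp was at 10.43, 10.44 and 10.71 with PDGF-B, against 9.84, 8.83 and 9.90 with vehicle, with its widest gap in P338. The matricellular gene Ccn5 (-0.45), the protease Adamts1 (-0.37) and Pamr1 (-0.38) were lower.

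Signalling and metabolic genes made up much of the rest. Errfi1 (0.65) and Lrig1 (0.42), both brakes on EGF receptors, Dusp4 (0.45), a phosphatase of ERK, Socs2 (0.43), Phlda1 (0.38) and the sphingosine kinase Sphk1 (0.48) rose in that fit. So did Bcat1 (0.68), which transaminates branched-chain amino acids, the stearoyl-CoA desaturase Scd1 (0.53), Gfpt2 (0.39) and Acsl4 (0.32). The transcription factor Twist2 (0.52), the nuclear transport GTPase Ran (0.38), the tubulin Tubb6 (0.42) and the cargo receptor Mcfd2 (0.46) rose as well. The lipoprotein lipase Lpl (-0.41), Rasgrp3 (-0.34), an activator of Ras, and Nop10 (-0.32), a small nucleolar protein, fell. Prl2c3 (0.56) belongs to the proliferins, whose near-identical copies a probe may not separate. Cdr2l, Chst1, Prkg2, Ivl, Jpt2, Dctd and Ywhag (0.32 to 0.48) rose and 1110008P14Rik (-0.32) fell.

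Gene lists written from textbook knowledge were described by their counts and medians, beside a median change of -0.0020 and shares of 15.2% higher and 15.7% lower in 3 of 3 pairs over all genes. With median scaling the median of all genes was -0.03, and 8.83% were higher and 24.3% lower in all 3 pairs, so list values under that scaling stand beside these. No member of any list passed over all arrays. Of 21 immediate early genes, 5 were higher in all 3 pairs and 2 lower, with a median of 0.06. With median scaling 2 were higher and 2 lower, with a median of 0.0055. Egr1, a zinc finger factor induced within minutes of growth factor addition, was at 10.14, 9.51 and 10.34 with PDGF-B, against 9.42, 9.20 and 10.14 with vehicle (0.41 ± 0.12, limma adjusted p = 0.67). It was higher in each pair, most in P524. Egr2 was at 7.59, 8.17 and 8.51 with PDGF-B, against 6.84, 8.21 and 8.07 with vehicle (0.38 ± 0.13), higher in P524 and P522 only. Atf3, a stress-induced partner of Jun, was lower in each pair (-0.21 ± 0.07). Fos (-0.09 ± 0.13) and Myc (-0.08 ± 0.07) had no common direction. Of the 15 members with a promoter entry 5 held the EGR site (Fosb, Klf2, Fosl2, Klf4 and Srf) and 2 the CArG box (Egr2 and Srf).

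Of 17 targets and feedback regulators of ERK measured, 10 were higher in all 3 pairs and 0 lower, with a median of 0.12. Dusp4 and Phlda1 were called in the knockout arrays alone. The Dusp4 probe used gave 0.45, and its dimmer probes gave 0.07 to 0.17. Dusp6, the cytoplasmic ERK phosphatase, was at 10.38, 10.46 and 10.35 with PDGF-B, against 10.14, 10.30 and 10.21 with vehicle, without overlap (0.18 ± 0.07). Dusp5, its nuclear relative with the paired CArG boxes printed above, was at 7.52, 7.08 and 6.74 with PDGF-B, against 7.15, 7.04 and 6.35 with vehicle (0.27 ± 0.10). The ETS factor Etv5 differed by 0.19 ± 0.08, while the Sprouty genes Spry2 (-0.01) and Spry4 (0.01) had no common direction. With median scaling 6 of the 17 were higher and 0 lower in all 3 pairs, with a median of 0.07.

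Of 11 SOCS and STAT feedback genes, 4 were higher in all 3 pairs and 0 lower (median 0.12). Socs2 was at 7.52, 8.21 and 8.10 with PDGF-B, against 7.03, 7.83 and 7.69 with vehicle, a similar step in each pair. Genes that FoxO factors activate when Akt is quiet leaned the other way, with 1 of 18 higher and 6 lower in all 3 pairs and a median of -0.03. With median scaling 0 were higher and 7 lower (38.9%, median -0.09), beside 24.3% of all genes lower. In wild-type cells the median of this list was -0.06. The PI3K inhibitor Pik3ip1 was at 7.31, 6.64 and 6.21 with PDGF-B, against 7.42, 6.88 and 6.59 with vehicle (-0.25 ± 0.08, limma adjusted p = 0.725). The death gene Bcl2l11 differed by -0.16 ± 0.07 and the ubiquitin ligase gene Fbxo32 by -0.15 ± 0.07, while Irs2 was at 0.14 ± 0.08.

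Cell cycle genes had few members with a common direction. Of 38 genes of G1/S and DNA replication 7 were higher and 3 lower in all 3 pairs, and of 23 mitosis genes 1 was higher and 5 lower (median -0.05). With median scaling the counts were 2 and 5 for G1/S and DNA replication, and 0 and 7 for mitosis. Ccnd1 (cyclin D1) was at 11.29, 10.89 and 12.29 with PDGF-B, against 11.07, 10.65 and 12.34 with vehicle (0.14 ± 0.15), and 2 other Ccnd1 probes gave 0.29 and -0.03. The mitotic genes Cenpa (-0.16 ± 0.09), Birc5 (-0.18 ± 0.10) and Tpx2 (-0.12 ± 0.06) were lower in each pair, none past the test.

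Paracrine growth factors had 9 of 16 members higher and 3 lower in all 3 pairs (median 0.10), and median scaling left 9 higher and 5 lower. Csf1 was at 10.57, 10.44 and 11.08 with PDGF-B, against 10.21, 10.13 and 10.49 with vehicle. Fgf7 was at 7.66, 7.46 and 8.10 with PDGF-B, against 6.95, 6.72 and 7.66 with vehicle. The EGF receptor ligand Hbegf (0.27 ± 0.10) and the angiogenic factor Vegfa (0.30) were higher in each pair, while Igf1 (-0.11) and Edn1 (-0.06) were lower in each.

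Among the matrix genes of myofibroblasts, Col1a1 was at 10.70, 9.90 and 9.95 with PDGF-B, against 10.69, 9.63 and 9.32 with vehicle (0.31 ± 0.17), and Col3a1 at 10.99, 9.71 and 8.996, against 11.49, 9.86 and 8.86 with vehicle (-0.17 ± 0.10). Both collagens differed mainly between preparations. Of 12 fibrillar and associated collagens 4 were higher and 1 lower in all 3 pairs (median 0.05). Timp1, an inhibitor of matrix metalloproteinases, was at 12.13, 12.47 and 12.79 with PDGF-B, against 11.93, 12.30 and 12.12 with vehicle (0.35 ± 0.09, limma adjusted p = 0.636), and a second probe gave 0.39. The crosslinking enzyme Lox differed by 0.21 ± 0.08 and the collagen chaperone Serpinh1 by 0.19 ± 0.08, but a second Serpinh1 probe gave 0.03. Their list of 19 had 8 higher and 2 lower in all 3 pairs (median 0.07). The change was 0.08 ± 0.06 in Acta2 and 0.13 ± 0.07 in Des (desmin), neither past the test. Of 24 matricellular genes 7 were higher and 3 lower in all 3 pairs, of 16 basement membrane genes 5 and 1, of 14 metalloproteinases and TIMPs 5 and 1, and of 21 contractile genes 8 and 2. The shares of higher members in these 6 lists thus lay between 29.2% and 42.1%, beside 15.2% of all genes, which are dimmer by median. With median scaling they lay between 8.33% (collagens) and 35.7% (metalloproteinases and TIMPs), beside 8.83% of all genes, and the medians of the metalloproteinase and contractile lists were -0.03, like that of all genes.

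Genes for making and exporting protein had more members higher than lower in every pair, in small steps, and this balance was smaller, level (COPII) or turned (translocon) with median scaling. Of 25 ribosome biogenesis genes 11 were higher and 1 lower in all 3 pairs (median 0.07), or 7 and 4 with median scaling (median 0.04). Polr1a, the large subunit of RNA polymerase I, was at 9.02, 9.14 and 9.12 with PDGF-B, against 8.70, 8.93 and 8.92 with vehicle, without overlap (0.24 ± 0.07). Of 19 cytosolic aminoacyl-tRNA synthetases 10 were higher and 1 lower (median 0.06), or 7 and 2 with median scaling (median 0.0012). Farsb was at 10.32, 10.24 and 10.45 with PDGF-B, against 9.91, 10.02 and 10.16 with vehicle, also without overlap (0.30 ± 0.07), whereas the partner subunit Farsa was lower in each pair (-0.10).

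In the secretory pathway, 13 of 29 genes of the COPII coat and its cargo receptors were higher and 3 lower in all 3 pairs (median 0.06), led by Tmed9 (0.25 ± 0.07), Mcfd2 (0.46 ± 0.13) and Sar1a (0.26 ± 0.08). With median scaling 5 of the 29 were higher and 5 lower (median 0.0096). Tmed9 was at 12.12, 12.17 and 12.22 with PDGF-B, against 11.84, 11.95 and 11.98 with vehicle. Of 26 genes of the COPI coat and Golgi tethers 9 were higher and 1 lower (median 0.05), or 4 and 3 with median scaling. Gorasp2 in this list was at 0.29 ± 0.07, while its dimmer probes gave 0.09, 0.02 and 0.18. Among 31 genes of the translocon and N-glycosylation 12 were higher and 4 lower (median 0.06), or 4 and 7 with median scaling (median -0.0036). Serp1, which steadies the translocon, was at 10.20, 10.12 and 9.99 with PDGF-B, against 9.66, 9.95 and 9.66 with vehicle (0.35 ± 0.09). Spcs1, a subunit of the signal peptidase, was lower in each pair (-0.19 ± 0.07), but a second bright Spcs1 probe gave -0.02.

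Of 20 ER chaperones and genes of the unfolded protein response, 8 were higher and 0 lower in all 3 pairs (median 0.07), falling to 2 and 0 with median scaling. Hspa5, the main ER chaperone, was at 7.36, 6.93 and 7.83 with PDGF-B, against 6.92, 6.94 and 7.01 with vehicle (0.42 ± 0.13). It was higher in P524 and P522 and level in P338. The ER stress element of its promoter was found in 7 of the 17 members with an entry, and the other holders differed by 0.24 (Creld2), 0.10 (Syvn1), 0.08 (Pdia6), 0.06 (Hsp90b1), 0.02 (Dnajc3) and 0.02 (Calr). Xbp1 (0.20 ± 0.07) and Hyou1 (0.18 ± 0.06), which did not hold it in these windows, were higher in each pair.

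Sterol genes had the highest median of the lists with 10 or more genes. Of 17 genes of cholesterol synthesis 8 were higher and 0 lower in all 3 pairs, with a median of 0.18, or 6 and 0 with a median of 0.14 under median scaling. The list's median was 0.29 in P524, 0.20 in P338 and 0.08 in P522. Cyp51, the lanosterol demethylase, was at 8.74, 8.45 and 7.09 with PDGF-B, against 8.08, 8.11 and 6.92 with vehicle (0.39 ± 0.12), and Hsd17b7 differed by 0.32 ± 0.14. Among fatty acid genes Scd1 was at 10.09, 10.34 and 9.23 with PDGF-B, against 9.68, 9.82 and 8.58 with vehicle, and Acly, which supplies acetyl-CoA, differed by 0.29 ± 0.09. The glucose transporter gene Slc2a1 (0.26 ± 0.08) led 15 genes of glycolysis and hypoxia, of which 6 were higher and 1 lower in all 3 pairs, or 1 and 3 with median scaling.

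Lower members prevailed in a few lists. Of 27 genes of oxidative phosphorylation 2 were higher and 11 lower in all 3 pairs, with a median of -0.08. Ndufa1, a subunit of complex I, was at 10.77, 10.86 and 10.67 with PDGF-B, against 11.11, 10.98 and 10.75 with vehicle (-0.18 ± 0.07). Cox5b differed by -0.20 ± 0.08 and Cox4i1 by -0.14 ± 0.06, while Cycs (0.12) and Atp5b (0.08) were higher in each pair. Of 21 autophagy genes 1 was higher and 10 lower (median -0.05). Map1lc3a, one of the LC3 proteins that coat autophagosomes, was at 7.79, 7.73 and 7.67 with PDGF-B, against 8.17, 7.84 and 8.13 with vehicle, without overlap (-0.31 ± 0.07, limma adjusted p = 0.636). Ulk1, the kinase that starts autophagy, differed by -0.19 ± 0.06. Of 21 interferon response genes 0 were higher and 7 lower, among them Bst2, Psmb9 (-0.20 ± 0.09) and Ifit3 (-0.32 ± 0.14). With median scaling these 3 lists had 19, 14 and 9 members lower in every pair and 0 higher, beside 24.3% of all genes lower.

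**Figure D3:**
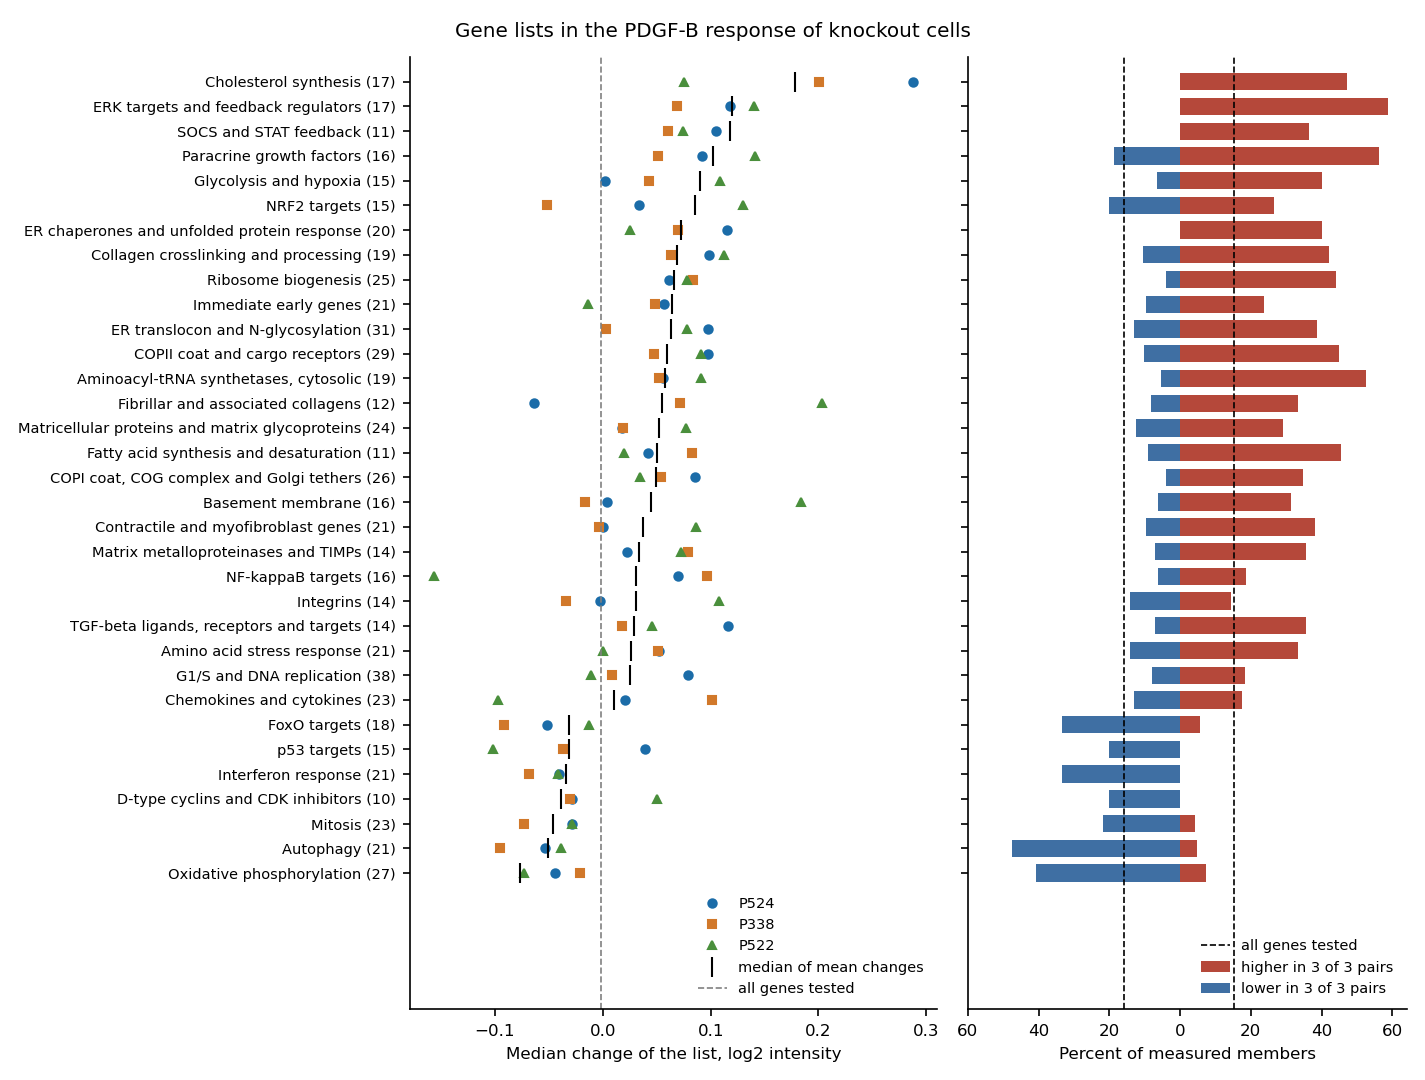
Gene lists with 10 or more measured genes (number in brackets), sorted by the median change with PDGF-B in knockout cells. Left, the median of each list's changes in each pair and of its mean changes, log2 intensity. Right, the percent of members higher (right of 0) or lower (left of 0) in all 3 pairs, with dashed lines at the shares of all genes. ERK feedback genes reach 10 of 17 higher, and autophagy genes 10 of 21 lower.

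Whether the response of knockout cells differed from that of wild-type cells was tested by the interaction in the same fit. No gene passed (0 of 13637, percent called 0, smallest limma adjusted p 0.999), with 611 genes (4.48%) at an unadjusted p under 0.05. Without the wild-type preparation P11 no gene passed either (smallest limma adjusted p 0.145, 1399 genes at an unadjusted p under 0.05). Wild-type cells likewise had 0 genes called for PDGF-B, and 308 genes higher and 333 lower had an unadjusted p under 0.05. Higher in all 3 wild-type pairs were 10.1% of genes and lower in all 3 were 10.9%. The 38 genes that rose in the knockout arrays alone had a median change of 0.46 in knockout and 0.22 in wild-type pairs, and 36 of them were above 0 in wild-type cells, against 49.2% of all genes. The 13 that fell had medians of -0.37 and -0.07, and 8 were below 0 in wild-type cells, against 50.8% of all genes. The wild-type values depended on P11, in which 31 of the 38 were below 0. Without it the wild-type median was 0.41 for the 38, of which 36 were above 0 (45.9% of all genes), and -0.16 for the 13, of which 10 were below 0 (54.1% of all genes), and 32 of the 38 and 9 of the 13 moved by over 1.5 times in wild-type cells. The medians in knockout cells are those the genes were chosen by, so their excess over wild-type cells is a description.

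Single genes illustrate the range. Spon2 differed by 0.95 in knockout and 0.63 in wild-type cells, Tnc by 0.96 and 0.58, and Col15a1 by 0.51 in both, and without P11 the wild-type values were 0.82, 0.90 and 0.74. Mgp differed by 1.0015 in knockout and 0.30 in wild-type cells, where P11 was at -0.91, P393 at 1.18 and P530 at 0.63, with a mean of 0.91 without P11. Bcat1 differed by 0.68 in knockout and 0.58 in wild-type cells, or 1.02 without P11, and Rgs16 by 0.88 and 0.22, or 0.53 without P11. Aldh1a3 differed by 1.14 in knockout and 0.16 in wild-type cells (difference 0.98, unadjusted p = 0.0017, limma adjusted p = 0.999), or 0.21 in wild-type cells without P11. Bst2 differed by -0.56 in knockout and 0.20 in wild-type cells (difference -0.76, unadjusted p = 0.0015, limma adjusted p = 0.999), or 0.13 in wild-type cells without P11. For none of these genes did the difference between genotypes pass the adjusted test, with or without P11.

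**Figure D4:**
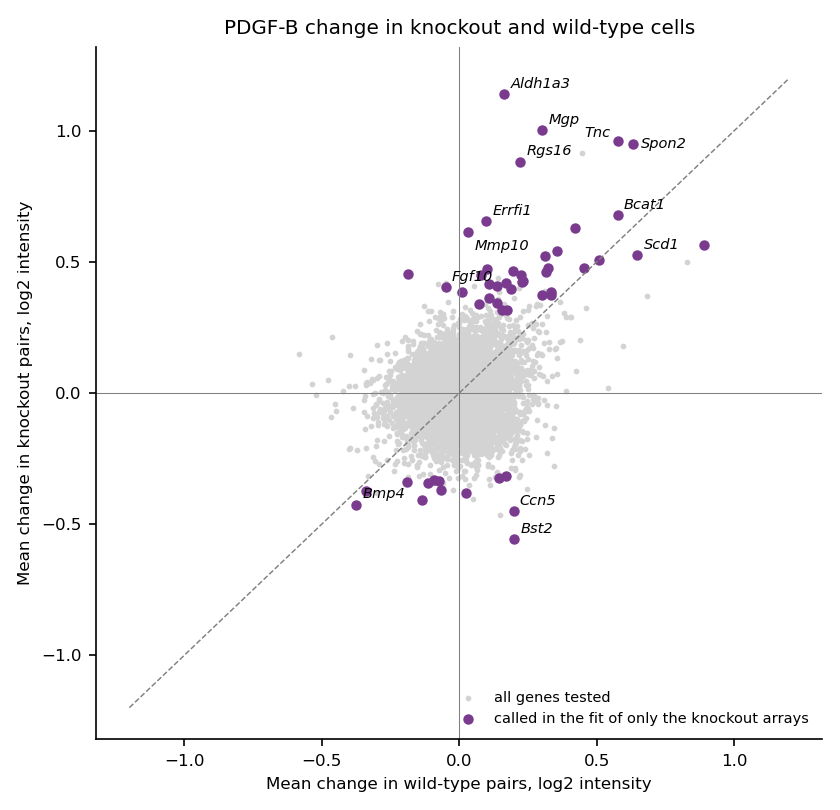
Mean change with PDGF-B in the 3 knockout pairs (vertical) against that in the 3 wild-type pairs (horizontal), log2 intensity, for all 13637 genes (grey) and the 51 genes called in the knockout arrays alone (purple). The dashed line marks equal change. Spon2, Tnc and Scd1 were high in both, Aldh1a3 and Bst2 lie far from the line, and no difference passed the test.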

How the data were processed

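RNA of 12 samples was hybridised to 1-colour Illumina BeadChips, with 3 samples in each of 4 groups, taken from the genotype and treatment in the labels. The work started from the non-normalized linear intensity values that the authors deposited. They also deposited normalized intensity values, linear and not centred, with column medians near 90.9 and nearly the same probe order as the first table. The method behind them is not stated in the labels or headers used here.

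Intensities were corrected with normexp (offset 50), quantile-normalized and log2-transformed (R 4.3.3, limma 3.58.1, statmod 1.5.0). No detection p-values were at hand, so the background of each array was estimated by mirroring the values below its mode. Of 45281 probes, the 27178 past p 0.05 on at least 3 arrays were kept. The platform annotation gave 1 symbol for 34885 probes, several for 18 and listed none for 10378, and 34807 were found by gene ID in RefSeq GRCm38.p6. Each gene was read from its brightest kept probe, and 5679 genes had more than 1. Other probes are quoted for some genes only, and in several genes they changed less than the probe used.

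One limma fit over all 12 arrays had the preparation as a block and a PDGF-B effect for each genotype, leaving 4 residual degrees of freedom, with Benjamini-Hochberg adjustment at 0.05. The pairing comes from the codes in the titles. Deviations from group means of arrays sharing a code correlated at 0.583 to 0.929, and each array correlated best with its own partner. The fit was tested on simulated data.

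The genes named are a panel (Pdgfrb, Pdgfra, Tnc, Timp1, Col1a1, Col3a1, Acta2, Des, Egr1, Fos, Myc, Ccnd1), the 10 with the smallest p in each direction among those of 1 sign in 3 of 3 knockout pairs, without provisional names, and up to 4 members of each list with the smallest p. Other names were chosen after their values were seen. The members, lists, tests and rule were chosen with earlier results of these data known. Alternatives covered the background, scaling, filter, probe choice, variance model, block, arrays fitted and each preparation left out. Scanned slides are not given, so no slide term was fitted.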

Additional observations from a re-analysis of the deposited data

How the results depend on the processing

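The count of genes called for PDGF-B in knockout cells depended on the model of the spread. It was 0 over all arrays with the preparation as a block. Without the replicate block it was also 0, with 147 genes at an unadjusted p under 0.05, against 846 with the block. It was 1 with an intensity trend and robust prior (Spon2, limma adjusted p = 0.0225), and 0 to 22 with 1 preparation left out, the 22 without the wild-type P11 and 1 without the knockout P338. In the knockout arrays alone it was 51. Fits of the knockout arrays chosen after seeing the data gave 39 with median scaling (19 higher and 20 lower) and 1 with the authors' normalized values. They gave 60 with the trend and robust prior, and 65, 55 and 32 without P524, P338 and P522. In the fit with median scaling, 284 genes higher and 1484 lower had an unadjusted limma p under 0.05. The other alternatives (no background correction, median scaling, the authors' values, no filter, probes detected on all arrays, the mean of probes, array weights) gave 0. The genotype difference had 0 calls in every fit run. Median scaling moved the share of genes higher in 3 of 3 pairs to 8.83% and lower to 24.3%. Of 42 list medians checked, 30 moved in at least 1 alternative by over 1 SD of the list's medians between pairs. Of 107 named genes checked in 16 alternatives, 3 turned sign in at least 1. Pdgfrb was at -0.0305 and Acta2 at -0.0318 with median scaling, and with 1 preparation left out Pdgfrb ranged from -0.0443 to 0.118 and Fos from -0.182 to 0.0251. None of the 20 genes with the smallest p turned sign. They were chosen for 1 direction in all 3 knockout pairs. Fits that left out a preparation, dropped the block or changed the variance model therefore could not turn them. The cause of the shifts between fits was not tested. With 3 pairs, and many genes near background, the number of arrays limits the precision.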

Other observations

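Further lists are given beside 15.2% of all genes higher and 15.7% lower in all 3 knockout pairs. Of 15 NRF2 target genes 4 were higher and 3 lower in all 3 knockout pairs (median 0.09), with Tkt, the transketolase of the pentose phosphate pathway, at 9.96, 10.55 and 10.82 with PDGF-B, against 9.80, 10.22 and 10.45 with vehicle (P524, P338, P522; 0.29 ± 0.08, limma adjusted p = 0.636). Of 16 NF-kappaB targets 3 were higher and 1 lower, and the pairs differed, with list medians of 0.07 in P524, 0.10 in P338 and -0.16 in P522. Chemokines and cytokines likewise had medians of 0.02, 0.10 and -0.10 in P524, P338 and P522. Among them Il33, an alarmin cytokine, was at 6.31, 6.29 and 6.62 with PDGF-B, against 6.11, 6.18 and 6.04 with vehicle, without overlap (0.30 ± 0.09, limma adjusted p = 0.694). The eosinophil chemokine Ccl11 differed by 0.33 ± 0.11 and Ccl3, a macrophage chemokine, by -0.21 ± 0.08.

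Of 15 p53 targets 0 were higher and 3 lower (median -0.03), and of 14 TGF-beta pathway genes 5 were higher and 1 lower (median 0.03), or 4 and 4 with median scaling. The activin subunit Inhba was at 9.61, 8.54 and 10.82 with PDGF-B, against 9.28, 8.36 and 10.02 with vehicle (0.44 ± 0.16, limma adjusted p = 0.746). Of 21 genes of the amino acid stress response 7 were higher and 3 lower (median 0.03), or 4 and 6 with median scaling. Bcat1 was at 8.92, 7.85 and 8.69 with PDGF-B, against 8.28, 7.14 and 7.99 with vehicle, while the stress gene Nupr1 was lower in each pair (-0.26 ± 0.10). Of 14 integrins 2 were higher and 2 lower, and Itga5, which binds fibronectin, differed by 0.34 ± 0.13, most in P522 (0.75). Of 10 D-type cyclins and CDK inhibitors 0 were higher and 2 lower in all 3 pairs.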
